A study of Mus musculus with 12 samples.

Results

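*Irf1*, *Batf2*, *Socs1* and *Batf* are 4 transcription factors or feedback regulators of the interferon-γ response, and their array values were examined here across both intestinal cell types and both genotypes of the study. They were chosen by name: every row of the deposited table whose single gene symbol was one of these 4 was taken. This gave 5 of 35556 rows, or 4 of 19938 genes with a symbol of their own. *Irf1* had a pair of rows (10376060 and 10385870), while *Batf2* (10460767), *Socs1* (10437668) and *Batf* (10397359) had 1 row each.

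The study asked what loss of the transcription factor Runx3 does to mononuclear phagocytes in the large intestine. Resident macrophages (RM) and CD11b+ dendritic cells (CD11b+ DC) were sorted as CD45+ cells with CD11c, MHCII and CD11b but no Ly6c, RM with F4/80 and CD11b+ DC without it. They were taken from the cecum of mice aged 6 to 8 weeks, males and females pooled, with cells of 3 to 4 mice in each sample. The 12 arrays hold 4 samples of Runx3Δ RM, 3 of WT RM, 3 of Runx3Δ CD11b+ DC and 2 of WT CD11b+ DC. Runx3Δ mice, listed in the labels as Runx3 -/-, carried a floxed *Runx3* deleted by CD11c-Cre on a C57Bl/6 background, and WT mice (Runx3 +/+) were littermates. CD11c-Cre is active in macrophages as well as DC, and other cells that express CD11c lose Runx3 too. CD11b+ DC combine CD103+ and CD103- subsets, and a shift between subsets cannot be told apart from a change within the cells. In such bulk samples, fewer cells that carry an RNA and less of that RNA per cell cannot be told apart either.

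Interferon-γ binds its receptor on macrophages and DC, the receptor's kinases JAK1 and JAK2 become active, and their signal switches on a first wave of genes through GAS elements in DNA. IRF1 is made in that wave and drives a further set of genes through ISRE elements. BATF2, a bZIP protein of the BATF family, is known to act together with IRF1 on inflammatory genes in mouse macrophages. SOCS1 closes the loop by blocking JAK1 and JAK2. BATF is a related bZIP protein that pairs with JUN proteins and binds DNA together with IRF4 or IRF8. It is best known from T cells, B cells and DC.

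The promoter windows of 3 of the 4 genes are printed because the DNA elements named above, and the sequence bound by RUNX proteins, can be read in them. Each holds 250 bases before and 50 bases from the start of the gene, 5′ to 3′, from RefSeq with build GRCm38.p6. Matches are in capitals. *Irf1* (chr11:53769764-53770063, plus strand) holds 1 GAS match, TTCNNNGAA, the same letters on either strand. *Socs1* (chr16:10785487-10785786, minus strand) holds a pair of ISRE matches, GAAANNGAAA or its complement TTTCNNTTTC, which overlap each other. *Batf* (chr12:85686470-85686769, plus strand) holds 2 RUNX matches, TGTGGT or its complement ACCACA.
Irf1: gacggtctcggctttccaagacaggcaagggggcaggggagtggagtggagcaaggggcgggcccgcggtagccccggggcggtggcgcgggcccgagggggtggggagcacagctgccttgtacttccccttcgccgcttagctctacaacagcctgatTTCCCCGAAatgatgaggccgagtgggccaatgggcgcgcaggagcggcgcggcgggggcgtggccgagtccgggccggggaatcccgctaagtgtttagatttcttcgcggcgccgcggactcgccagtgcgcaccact
Socs1: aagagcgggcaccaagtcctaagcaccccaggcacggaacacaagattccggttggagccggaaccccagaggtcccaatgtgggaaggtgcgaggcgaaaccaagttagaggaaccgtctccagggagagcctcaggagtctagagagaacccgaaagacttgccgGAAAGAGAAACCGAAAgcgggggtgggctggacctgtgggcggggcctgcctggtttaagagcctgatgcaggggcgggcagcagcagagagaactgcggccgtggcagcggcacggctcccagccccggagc
Batf: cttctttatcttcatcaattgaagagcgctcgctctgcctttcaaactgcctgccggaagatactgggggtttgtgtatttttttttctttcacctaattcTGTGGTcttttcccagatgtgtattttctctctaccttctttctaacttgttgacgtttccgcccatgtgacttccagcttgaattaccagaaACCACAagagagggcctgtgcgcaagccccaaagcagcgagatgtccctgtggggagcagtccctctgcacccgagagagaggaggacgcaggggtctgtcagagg

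The GAS match of *Irf1* began 90 bases before the start of the gene, and such a match stood in 8.3% of all 32851 promoter windows. The ISRE matches of *Socs1* began 83 and 77 bases before the start, and 3.44% of windows held at least 1 match. The RUNX matches of *Batf* began 149 and 56 bases before the start. At least 1 such match stood in 16.8% of windows and at least 2 stood in 1.81%. The other RUNX form, TGCGGT or ACCGCA (6.45% of windows), and the AP-1 letters TGANTCA (7.81%) were in none of the printed windows. No match of 1 motif overlapped a match of another. A second window of *Irf1*, at a later start, held none of the 5 motifs. These matches are descriptions of letters, and binding was not measured here.

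Values below are log2 levels as deposited, which the authors normalized by RMA with a GC correction. Runx3Δ was compared with WT by limma, with all 12 arrays in 1 fit of 4 groups and a Benjamini-Hochberg adjustment over the 35556 rows. A row is said to have passed where its adjusted p was under 0.05. The study itself used a 1.5-fold change with a p of 0.05, without adjustment, and these thresholds are mentioned where a gene met them. Nothing in the labels says whether the samples of a group were sorted on separate days, so p-values cover the spread between these samples alone. Precision is limited by the small number of arrays.

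Marker genes separated the samples by their labelled cell type. The mean log2 level of 10 macrophage markers ran from 10.67 to 11.32 over the RM samples and from 8.84 to 9.32 over CD11b+ DC. That of 10 DC markers ran from 7.97 to 8.59 over RM and from 10.11 to 10.46 over CD11b+ DC. *Runx3* itself (row 10509030) stood at 9.94 ± 0.16 in Runx3Δ RM and 9.69 ± 0.19 in WT RM (SD, n = 4 and 3). It stood at 10.04 ± 0.09 in Runx3Δ CD11b+ DC and 10.05 ± 0.09 in WT CD11b+ DC (SD, n = 3 and 2). The floxed part is exon 3 alone, so this row does not check the deletion. Runx3Δ RM replicate 1 stood somewhat apart: its mean correlation with the other RM samples was 0.980, against 0.983 to 0.987 for the other 6. The 4 genes and a set of others were followed with single samples left out. RM differences quoted for them that its removal moved by over 1.5 times are given with and without it. List medians, and markers given only by group means, such as *Cd2* and *Vcan*, were not followed in this way.

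None of the 4 genes passed the adjusted threshold in either cell type. In RM 5 rows passed, or 0.0141% of those tested, and in CD11b+ DC 0 rows, or 0%, although 2395 rows (6.74%) had an unadjusted p under 0.05 by limma. *Batf2* had the highest fold changes of the 4 genes, 1.62-fold in RM and 2.03-fold in CD11b+ DC. It was the only one of the 4 at the thresholds of the study, in both cell types. Of all rows, 0.728% met those thresholds upward in RM and 0.633% in CD11b+ DC. *Batf2* is also on the list of pro-inflammatory genes that the study drew up from these same arrays, so its values here are not independent evidence. *Irf1* and *Socs1* had higher means in Runx3Δ of both cell types. *Batf* had lower means, by 0.03 on the log2 scale in RM and by 0.48 in CD11b+ DC. None of these differences passed.

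*Batf2*, the partner of IRF1, had log2 levels of 7.72, 8.66, 8.15 and 8.29 in Runx3Δ RM replicates 1 to 4, against 7.28, 7.51 and 7.73 in WT RM replicates 1 to 3. The groups overlapped by a single pair, since the lowest Runx3Δ sample lay just under the highest WT sample. In CD11b+ DC the levels were 7.97, 8.34 and 8.37 in the Runx3Δ samples, against 7.04 and 7.37 in the WT samples. Every Runx3Δ sample of DC was above both WT samples.

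The *Batf2* means were 8.20 ± 0.39 in Runx3Δ RM and 7.51 ± 0.22 in WT RM (SD, n = 4 and 3). The difference was 0.70 on the log2 scale, with a 95% confidence interval from 0.25 to 1.15 (limma, unadjusted p = 0.00575, adjusted p = 0.401). In CD11b+ DC the means were 8.23 ± 0.22 in Runx3Δ and 7.20 ± 0.23 in WT (SD, n = 3 and 2), a difference of 1.02 with an interval from 0.49 to 1.56 (limma, unadjusted p = 0.00152, adjusted p = 0.367). Both intervals lay above 0, and each p was well short of the threshold once it was adjusted over the table. Averaged over both cell types the difference was 0.86 (0.51 to 1.21, limma, adjusted p = 0.0871). In that comparison 4 rows passed, 0.0112% of all. *Batf2* passed in it with arrays weighted, with 1 row per gene, with the mean of the rows of a gene and without the unnamed rows that lead the table, at adjusted p-values from 0.0202 to 0.0356. Without Runx3Δ RM replicate 1 the mean difference was 0.94 (limma, adjusted p = 0.0504), and without WT CD11b+ DC replicate 1 it was 0.78 (limma, adjusted p = 0.406).

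The labels number the samples as litter mates. Neither the labels nor the methods define these numbers, so reading samples of the same number as 1 litter is an assumption in every value given here by litter or with the litter as a block. In RM *Batf2* was higher in Runx3Δ in litters 1, 2 and 3, by 0.43, 1.15 and 0.42 on the log2 scale. In CD11b+ DC only litter 3 holds both genotypes, and there the difference was 0.97. All 4 differences had the same sign, and the widest came from litter 2 of RM. With the litter as a block the differences were 0.67 in RM and 1.19 in CD11b+ DC.

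**Figure D1:**
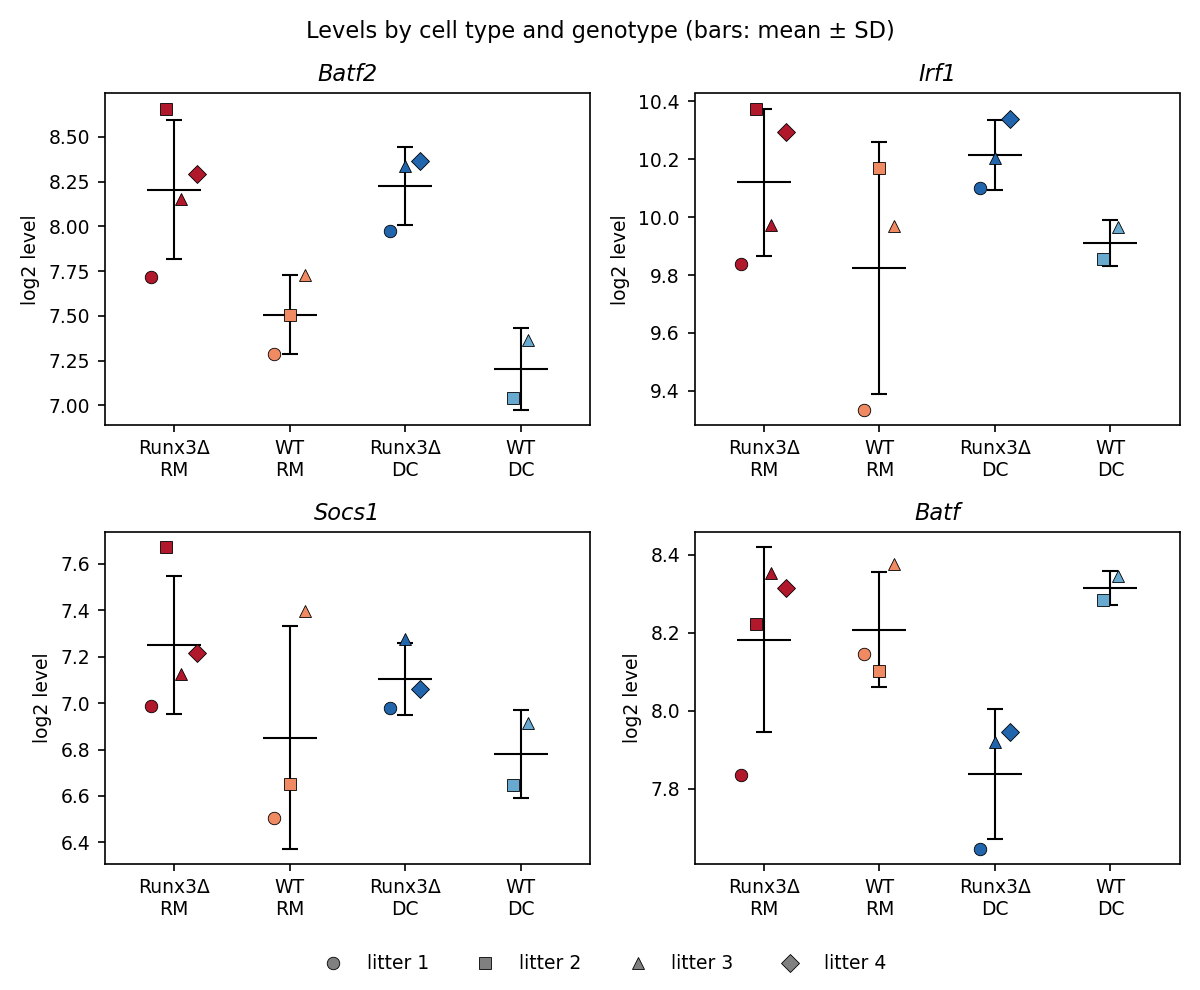
Log2 level (y axis) of each gene in every sample, by cell type and genotype, with Runx3Δ left of WT. Points are samples, shapes mark litter numbers, and bars give the mean ± SD of 4, 3, 3 and 2 samples. *Batf2* separates the genotypes in CD11b+ DC and overlaps in RM by 1 pair of samples, at 7.72 in Runx3Δ and 7.73 in WT. Each panel has its own axis range, and none starts at 0.

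*Irf1*, the transcription factor of the first wave, is described by its brighter row. Its log2 levels were 9.84, 10.37, 9.97 and 10.29 in Runx3Δ RM, against 9.33, 10.17 and 9.97 in WT RM. The WT samples spread over most of the Runx3Δ range. In CD11b+ DC the levels were 10.10, 10.20 and 10.34 in Runx3Δ, against 9.85 and 9.97 in WT. Here all Runx3Δ samples were above both WT samples. The differences were 0.30 in RM (-0.13 to 0.72, limma, adjusted p = 0.746) and 0.30 in CD11b+ DC (-0.20 to 0.81, limma, adjusted p = 0.865), both with intervals across 0. Within litters 1, 2 and 3 of RM the differences were 0.50, 0.20 and 0.0046. The RM value depended on single samples: it was 0.05 without WT replicate 1 and 0.47 without WT replicate 2. The second row of *Irf1* was much dimmer, with means of 5.92 in Runx3Δ RM, 5.70 in WT RM, 5.90 in Runx3Δ CD11b+ DC and 5.84 in WT CD11b+ DC. It differed by 0.22 in RM and by 0.06 in CD11b+ DC (limma, adjusted p = 0.701 and 0.977), and WT RM replicate 1 was again the lowest RM sample, at 5.37.

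*Socs1*, the inhibitor of the JAK kinases, had log2 levels of 6.99, 7.67, 7.13 and 7.22 in Runx3Δ RM, against 6.50, 6.65 and 7.40 in WT RM. A single WT sample, replicate 3, lay above 3 of the 4 Runx3Δ samples. In CD11b+ DC the levels were 6.98, 7.28 and 7.06 in Runx3Δ, against 6.65 and 6.92 in WT, so that the groups did not overlap. The differences were 0.40 in RM (-0.08 to 0.88, limma, adjusted p = 0.694) and 0.32 in CD11b+ DC (-0.25 to 0.90, limma, adjusted p = 0.880). The size of both rested on single samples. In RM it was 0.67 without WT replicate 3, 0.23 without WT replicate 1 and 0.26 without Runx3Δ replicate 2. In CD11b+ DC it was 0.19 without WT replicate 1. By litter the RM differences were 0.48, 1.02 and -0.27, so that litter 3 went the other way.

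*Batf*, the bZIP partner of IRF4 and IRF8, had log2 levels of 7.84, 8.22, 8.35 and 8.32 in Runx3Δ RM, against 8.15, 8.10 and 8.38 in WT RM. The groups overlapped almost fully. In CD11b+ DC its levels were 7.65, 7.92 and 7.95 in Runx3Δ, against 8.28 and 8.35 in WT, with all Runx3Δ samples below both WT samples. The difference was -0.03 in RM (-0.33 to 0.27, limma, adjusted p = 0.976), and it turned to 0.09 without Runx3Δ replicate 1. In CD11b+ DC it was -0.48 (-0.84 to -0.12, limma, unadjusted p = 0.0140, adjusted p = 0.582), and litter 3 alone gave -0.42.

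In CD11b+ DC all 4 genes thus had groups that did not overlap, 3 with Runx3Δ above and *Batf* with Runx3Δ below. With only 2 WT arrays such a pattern is common: 13.1% of all rows had Runx3Δ above WT in this way and 12.6% below. In RM none of the 4 was free of overlap, against 4.12% and 3.43% of all rows. At an unadjusted p under 0.05 stood *Batf2* in RM, where 7.96% of rows did, and *Batf2* and *Batf* in CD11b+ DC, where 6.74% did.

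**Figure D2:**
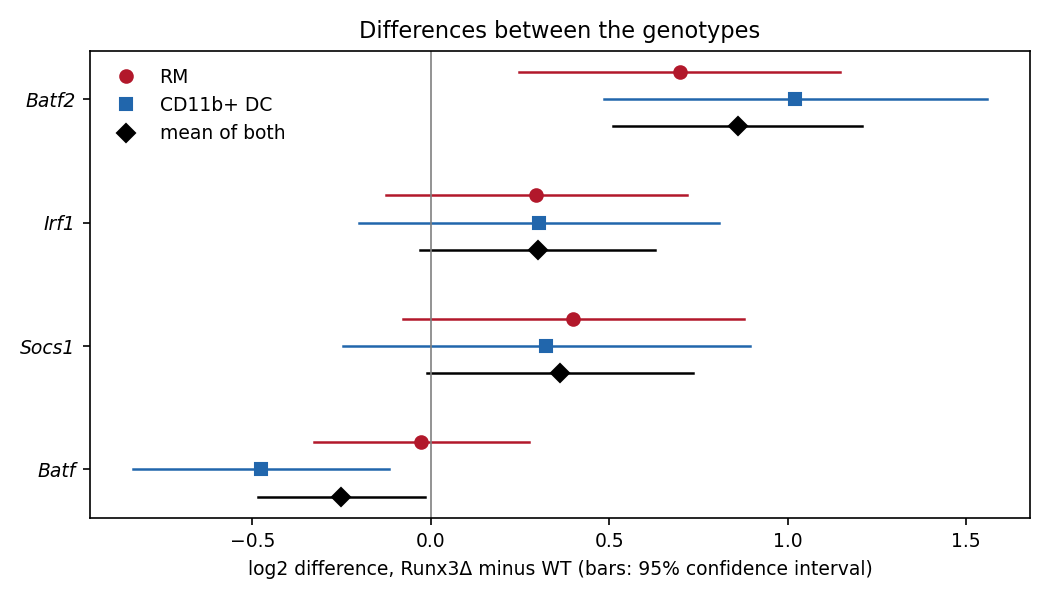
Log2 difference between Runx3Δ and WT (x axis) for each gene, in RM, in CD11b+ DC and averaged over both. Points are limma estimates from 12 arrays and bars their 95% confidence intervals. The *Batf2* intervals lie above 0 in both cell types (0.25 to 1.15 and 0.49 to 1.56), while those of *Irf1* and *Socs1* cross 0.

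Whether loss of Runx3 went with a different change in the 2 cell types was tested as an interaction. No row passed (0% of rows, with 1391 rows, or 3.91%, at an unadjusted p under 0.05 by limma). For *Batf2* the RM difference was 0.32 smaller than the DC difference, with an interval of -1.02 to 0.38 for that contrast. For *Batf* the RM difference was 0.45 above the DC difference (-0.02 to 0.92, limma, unadjusted p = 0.0581, adjusted p = 1.00). The interactions of *Irf1* (-0.0085, interval -0.67 to 0.65) and *Socs1* (0.075, interval -0.67 to 0.82) lay near 0 with wide intervals.

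None of the 4 genes passed between the cell types either, although 7.85% of rows passed between RM and CD11b+ DC in Runx3Δ and 6.07% in WT. Among the Runx3Δ samples *Batf* averaged 8.18 ± 0.24 in RM and 7.84 ± 0.17 in CD11b+ DC (SD, n = 4 and 3), a difference of 0.34 (limma, adjusted p = 0.189). Without Runx3Δ RM replicate 1, the RM sample with the lowest *Batf*, that difference was 0.46 and passed (limma, adjusted p = 0.0320). Among the WT samples *Batf* averaged 8.21 ± 0.15 in RM and 8.31 ± 0.04 in CD11b+ DC (SD, n = 3 and 2). *Batf2* in WT was 0.30 higher in RM than in CD11b+ DC (-0.23 to 0.84), and in Runx3Δ the cell types differed by -0.022 (-0.47 to 0.43).

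Ordered by mean level, *Batf2* was highest in Runx3Δ CD11b+ DC (8.23), followed by Runx3Δ RM (8.20), WT RM (7.51) and WT CD11b+ DC (7.20). Neither the upper pair nor the lower pair differed beyond its spread. *Irf1* and *Socs1* likewise had their highest means in the Runx3Δ groups, at 10.21 and 10.12 for *Irf1* in CD11b+ DC and RM and at 7.11 and 7.25 for *Socs1*. Their WT means were 9.91 and 9.82 for *Irf1* and 6.78 and 6.85 for *Socs1* in the same order of cell types. For these genes no neighbours in the order of 4 groups differed beyond their spread. *Batf* had its lowest mean in Runx3Δ CD11b+ DC, and the other 3 groups lay between 8.18 and 8.31.

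Across the 12 samples *Batf2* varied with *Socs1* and *Irf1*. Pearson's r was 0.81 between *Batf2* and *Socs1* (Spearman's rho 0.83) and 0.74 between *Batf2* and *Irf1* (rho 0.87). These values describe samples that share cell types and litter numbers, and carry no test. Part of such a correlation comes from the difference between groups, so each value was reduced by its group mean, which left 0.81 and 0.73. The samples that were high for *Batf2* within their group were thus also high for *Socs1* and *Irf1*. Runx3Δ RM replicate 2 was highest of all 12 samples in each of these genes, at 8.66 for *Batf2*, 7.67 for *Socs1* and 10.37 for *Irf1*. Without the 2 samples farthest from the median of the first gene named, r was 0.68 for *Batf2* with *Socs1* and 0.71 for *Irf1* with *Batf2*. *Irf1* with *Socs1* had an r of 0.65, which fell to 0.26 without such samples and so rested on them. *Batf* was related to *Batf2* by an r of -0.19 over all samples and 0.75 after the group means were removed. In CD11b+ DC the Runx3Δ samples were lower than WT for *Batf* and higher for *Batf2*. All 6 pairs were computed, and those of *Batf* with *Irf1* and *Socs1* gave -0.10 and 0.12. After the group means were removed they gave 0.40 and 0.56, and *Irf1* with *Socs1* gave 0.56. Within groups all 6 values were thus positive, and those of *Batf2* with *Socs1* and *Irf1* did not stand alone.

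**Figure D3:**
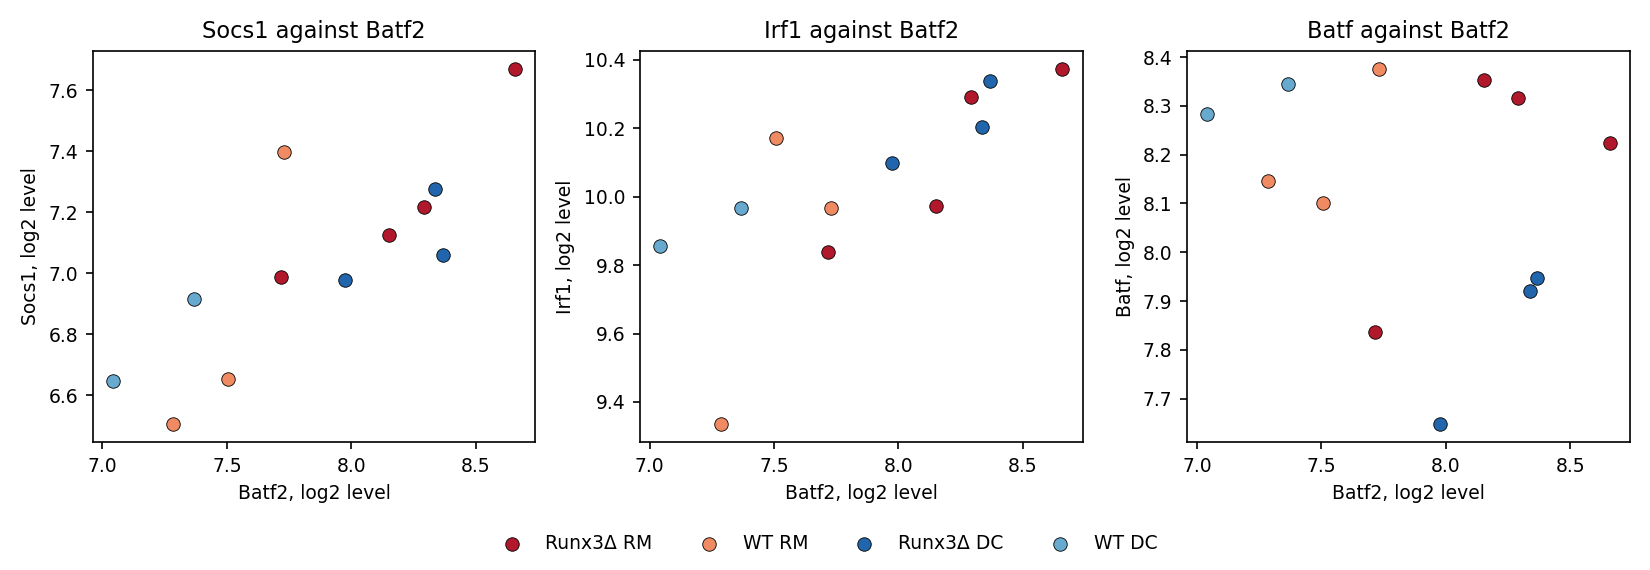
Log2 level of *Socs1*, *Irf1* and *Batf* (y axes) against that of *Batf2* (x axes). Each point is 1 of the 12 samples, coloured by genotype and cell type. Over all 12 samples *Socs1* and *Irf1* climb with *Batf2* (r 0.81 and 0.74), and *Batf* does not (r -0.19). With group means removed, the r of *Batf* with *Batf2* is 0.75.

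The genes most like each of the 4 were sought among 12212 genes with a mean log2 level of at least 5, by Pearson's r over the 12 samples. For *Batf2* they were *Nampt*, an enzyme of NAD synthesis (0.92), *Plgrkt*, a plasminogen receptor (0.91), the predicted gene *Gm10364* (0.89), *Slamf8*, a receptor on myeloid cells (0.88), and *Nos2*, the inducible nitric oxide synthase (0.88). For *Socs1* they were *Gbp5* (0.91) and *Irgm1* (0.86), both GTPases on the list of interferon-γ targets below, and *Myl6b* (0.85), *Mrpl44* (0.84) and *Tns3* (0.84). For *Irf1* they were *2310061I04Rik* (0.91), *Tomm6* (0.91), *Gdap10* (0.84), *Gm4983* (0.83) and *Bambi* (0.82). For *Batf* they were *Furin*, a protease that processes precursor proteins (0.90), *Stx11* (0.89), *Stk40* (0.89), *Mmp19*, a matrix metalloproteinase (0.89), and *Dpep2* (0.89). These are the highest of 12212 values each, and no test was made of them.

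The genes around the 4 regulators were taken from lists made from general knowledge. At the top of the pathway, *Ifng*, the cytokine itself, was dim in sorted phagocytes. Its log2 levels were 5.51, 6.12, 4.92 and 5.12 in Runx3Δ RM, against 4.57, 4.86 and 4.73 in WT RM. All Runx3Δ samples were above all WT samples, by 0.70 on average (limma, unadjusted p = 0.0153, adjusted p = 0.516) and by 0.47 without Runx3Δ replicate 2. In CD11b+ DC its means were 4.97 in Runx3Δ and 4.93 in WT. Of 13 measured genes of the receptor and its signal, 3 were above WT in RM and 5 in CD11b+ DC, with medians of -0.04 and -0.11, and none passed. *Stat3*, a transcription factor best known from interleukin-6 and interleukin-10 signals, had differences of -0.18 in RM and -0.27 in CD11b+ DC (limma, adjusted p = 0.672 and 0.709). Without Runx3Δ RM replicate 1 the RM value was -0.10. *Ptpn11*, a phosphatase of receptor signals, and *Jak1* differed by -0.34 and -0.27 in CD11b+ DC (limma, adjusted p = 0.550 and 0.624).

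The targets of the response had higher means in Runx3Δ in most cases, without passing in either cell type. Of 32 listed interferon-γ targets 27 had a row, and 22 of them were above WT in RM and 22 in CD11b+ DC. Their median differences were 0.31 and 0.47, where the median over all rows was 0.03 and 0.01. At the thresholds of the study 8 were higher in RM and 7 in CD11b+ DC, where 0.728% and 0.633% of all rows were. None was lower, where 0.731% of all rows were lower in RM and 1.5% in CD11b+ DC. Groups with Runx3Δ wholly above WT were seen for 7 of the 27 targets in RM and 17 in CD11b+ DC, against the 4.12% and 13.1% of all rows given above. The list was drawn up with earlier results on these arrays known, so these counts describe it and test nothing.

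*Nlrc5*, the transactivator of MHC class I genes, was the only target that passed when the cell types were averaged. Its levels were 10.02, 10.03, 9.74 and 10.13 in Runx3Δ RM, against 9.03, 9.26 and 9.15 in WT RM. In CD11b+ DC they were 10.08, 9.75 and 9.92 in Runx3Δ, against 9.15 and 9.29 in WT. The groups did not overlap in either cell type, and the mean difference was 0.76 (limma, adjusted p = 0.0371). The call was lost in 13 of 23 alternatives. These were the litter as a block (difference 0.73, limma, adjusted p = 0.134), an unmoderated fit after the methods of the study (adjusted p = 0.0844), median centring (limma, adjusted p = 0.0502) and the removal of any 1 of 10 samples, all but WT RM replicate 1 and Runx3Δ RM replicate 3, with adjusted p-values from 0.0504 to 0.241. In RM alone *Nlrc5* differed by 0.83 and passed in 4 of 25 alternatives. *Nlrc5* has several rows, and the brightest stands for it. The mean of its rows gave a smaller average difference, 0.59, which passed (limma, adjusted p = 0.0127). Like *Batf2*, both *Nlrc5* and *Nos2* are on the study's own list of pro-inflammatory genes from these arrays. *Tnf* and *Gzma*, given below, are on that list too, *Tnf* as a gene lowered in Runx3Δ RM. The values of these genes are thus not independent evidence either.

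*Nos2*, whose enzyme makes nitric oxide in activated macrophages, had levels of 7.23, 9.12, 7.90 and 8.71 in Runx3Δ RM, against 5.64, 5.32 and 5.67 in WT RM. In CD11b+ DC they were 6.05, 6.79 and 7.88 in Runx3Δ, against 4.94 and 5.42 in WT. The groups were apart in both cell types, with differences of 2.70 in RM and 1.72 in CD11b+ DC (limma, adjusted p = 0.125 and 0.548). *Iigp1*, a GTPase that attacks vacuoles holding pathogens, differed by 1.33 and 0.74 (limma, adjusted p = 0.148 and 0.689). *Tap1*, which carries peptides to MHC class I, differed by 0.64 and 0.47 (limma, adjusted p = 0.191 and 0.565). Both had Runx3Δ wholly above WT in both cell types. The *Iigp1* difference in CD11b+ DC was 0.34 without WT replicate 2 and 1.14 without WT replicate 1. On the average of both cell types *Nos2* and *Iigp1* each passed in 4 of 23 alternatives and *Tap1* in 5, and in RM *Nos2* passed in 3 of 25 and *Iigp1* in 2.

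Not all genes that BATF2 and IRF1 are known to drive together in mouse macrophages were higher. Of *Nos2*, *Tnf* and *Ccl5*, the cytokine gene *Tnf* had levels of 9.20, 10.05, 10.06 and 10.55 in Runx3Δ RM, against 10.72, 11.53 and 11.07 in WT RM. In CD11b+ DC its levels were 8.14, 8.98 and 9.59 in Runx3Δ, against 10.40 and 9.82 in WT. All Runx3Δ samples were thus below all WT samples of their cell type. The differences were -1.14 and -1.21 (limma, adjusted p = 0.474 and 0.634). With the litter as a block the RM difference was -1.34 and passed (limma, adjusted p = 0.0404). The chemokine gene *Ccl5* differed by 0.20 in RM and -0.04 in CD11b+ DC, with overlapping groups. Without Runx3Δ RM replicate 1 its RM difference was 0.36, and removal of WT RM replicate 2 turned it to -0.17.

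A neighbouring response did not share the direction in RM. Of 22 measured genes of the type I interferon response, which is read through ISRE elements, 21 were below WT in RM with a median of -0.45, and 12 in CD11b+ DC with a median of -0.06. None passed. At the thresholds of the study 10 were lower and 0 higher in RM, and 4 were lower and 1 higher in CD11b+ DC. Of all rows, 0.731% and 1.5% were lower in these cell types, and 0.728% and 0.633% higher. This list too was made with earlier results known, and its counts test nothing. *Ifih1*, a sensor of viral RNA, had levels of 9.83, 9.91, 9.96 and 10.09 in Runx3Δ RM, against 10.24, 10.67 and 11.17 in WT RM. Its differences were -0.75 in RM and -0.82 in CD11b+ DC (limma, adjusted p = 0.274 and 0.440). The study names *Ifih1* as lowered in Runx3Δ CD11b+ DC from these same arrays, so its values are not independent evidence. Without WT RM replicate 1 the RM difference was -0.97 and passed (limma, adjusted p = 0.0482). *Ddx60*, a helicase of the same response, differed by -0.61 and -0.42 (limma, adjusted p = 0.181 and 0.581). On the average of both cell types *Ifih1* and *Ddx60* each passed in 5 of 23 alternatives.

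**Figure D4:**
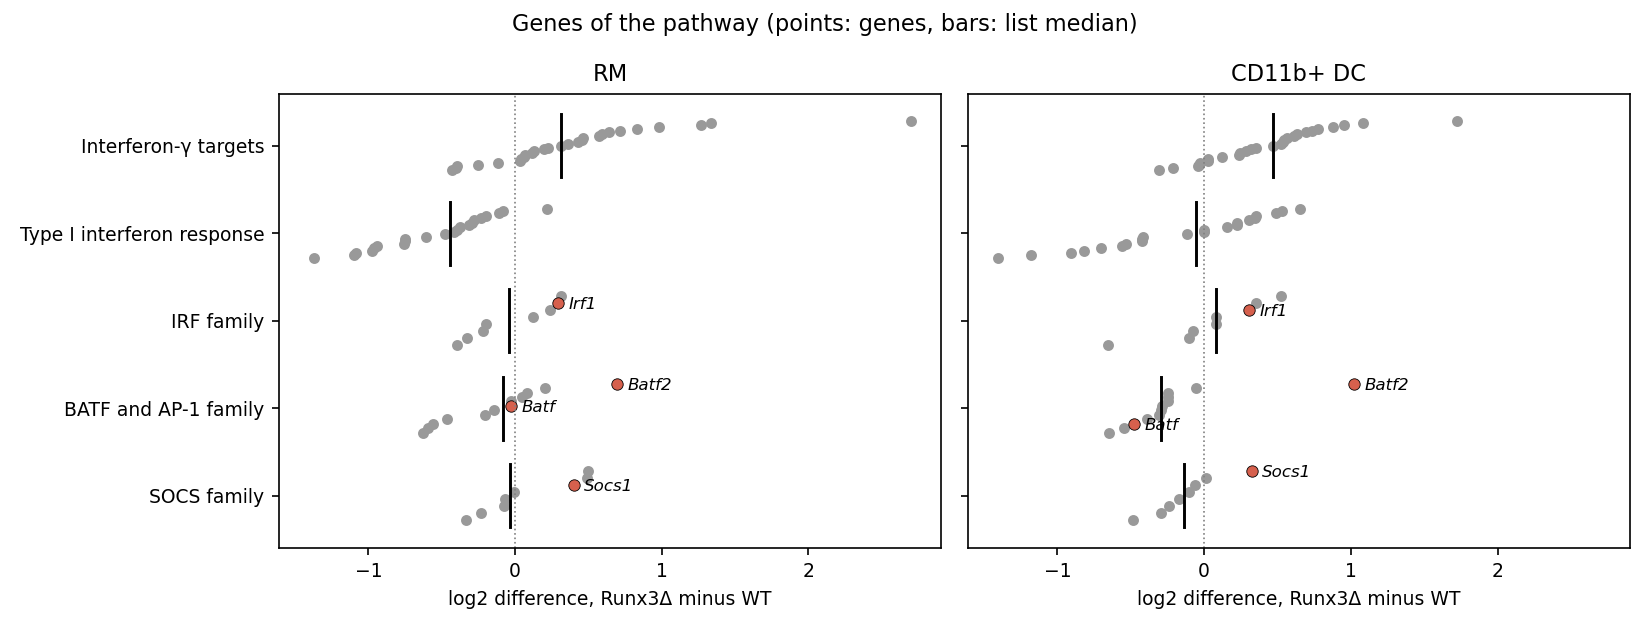
Log2 difference between Runx3Δ and WT (x axes) in RM (left) and CD11b+ DC (right) for the genes of 5 lists, with *Irf1*, *Batf2*, *Socs1* and *Batf* in red where they belong. Points are genes, spread in height by rank, and bars the list medians. The interferon-γ targets have medians of 0.31 and 0.47, and *Batf2* is the highest of the BATF and AP-1 family in both panels, at 0.70 and 1.02.

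Relatives of the 4 genes were taken family by family. Of 8 measured IRF genes none passed, and *Irf4* and *Irf8* had the smallest p of them in CD11b+ DC. *Irf8*, needed for conventional DC of the CD103+CD11b- type and induced by interferon-γ in macrophages, had levels of 9.997, 9.490 and 9.910 in Runx3Δ, against 9.37 and 9.18 in WT. *Irf4*, a factor of CD11b+ DC, had levels of 10.002, 9.904 and 10.038 in Runx3Δ, against 10.79 and 10.49 in WT. Neither pair of groups overlapped, with differences of 0.52 and -0.66 (limma, adjusted p = 0.547 and 0.427). In RM the differences were 0.31 and -0.40. On the average of both cell types *Irf4* passed in 2 of 23 alternatives. *Irf3* differed by -0.33 in RM, with no overlap (limma, adjusted p = 0.377).

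Of 12 genes of the BATF and AP-1 family, 11 were below WT in CD11b+ DC, and *Batf2* alone was above. In RM 8 were below. The medians were -0.29 in CD11b+ DC and -0.09 in RM, and none passed. In 10 of the 11 in CD11b+ DC the groups did not overlap, *Batf* among them, where 12.6% of all rows lay wholly below WT. *Fos* and *Fosb*, immediate-early members of AP-1, differed by -0.63 and -0.56 in RM (limma, adjusted p = 0.506 and 0.494) and by -0.39 and -0.31 in CD11b+ DC (limma, adjusted p = 0.824 and 0.857). The *Fos* difference was -0.38 in RM without WT replicate 2. In CD11b+ DC, without WT replicate 1, those of *Fos* and *Fosb* were -0.19 and -0.19. A list of 14 measured immediate-early and dissociation genes, which overlaps this family, moved with it. All 14 were below WT in CD11b+ DC (median -0.48), 11 of them without overlap, beside the same 12.6% of all rows. In RM 11 were below WT (median -0.47). The part of these genes in the *Batf* difference was not tested. The DC markers moved with it as well: 8 of 10 were below WT in CD11b+ DC, 6 without overlap, again beside 12.6% of all rows. Mean levels of the list there ran from 10.11 to 10.14 in Runx3Δ and from 10.35 to 10.46 in WT. The part of that shift was not tested either.

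Of 8 measured SOCS genes, *Cish* and *Socs2*, which restrain cytokine receptors that signal through STAT5, differed by 0.50 and 0.49 in RM (limma, adjusted p = 0.492 and 0.536) and by -0.06 and 0.01 in CD11b+ DC. *Socs4* and *Socs6* differed by -0.34 and -0.23 in RM and by -0.24 and -0.48 in CD11b+ DC. Without Runx3Δ RM replicate 1 the *Socs6* value in RM was -0.06, and without WT RM replicate 3 it was -0.08. That of *Socs4* in CD11b+ DC was -0.10 without WT replicate 2. The median of the family was -0.04 in RM and -0.14 in CD11b+ DC, so that *Socs1* was above the median of its family in both cell types.

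T and NK cells are the main source of interferon-γ, and the sort for CD11c, MHCII and CD11b would remove most of them. Of 14 measured markers of these cells, 12 were above WT in RM and 11 in CD11b+ DC, with medians of 0.25 and 0.28, and none passed. The mean log2 level of the list ran from 6.33 to 6.90 over Runx3Δ RM and from 5.89 to 6.42 over WT RM. It ran from 6.30 to 6.39 over Runx3Δ CD11b+ DC and from 6.13 to 6.15 over WT CD11b+ DC. The genes of the CD3 complex, which define T cells, differed in brightness. *Cd3e* had means of 7.75 in Runx3Δ RM and 7.09 in WT RM, *Cd3g* 6.13 and 5.49, and *Cd3d* 4.83 and 4.51. In CD11b+ DC the means were 7.21 in Runx3Δ and 6.85 in WT for *Cd3e*, 5.78 and 5.11 for *Cd3g* and 4.62 and 4.19 for *Cd3d*. All 3 genes overlapped between the genotypes in RM, and in CD11b+ DC Runx3Δ was wholly above WT, as in 13.1% of all rows. *Ncr1*, which defines NK cells, was at 3.51 in Runx3Δ RM and 3.46 in WT RM, while *Gzmb*, a granule protease, was at 6.69 and 6.17. *Gzma*, a related protease, differed by 1.30 in RM with no overlap. The 2 markers below WT in RM were *Cd2*, at 8.45 in Runx3Δ and 8.50 in WT, and *Cd4*, at 11.1 and 11.6. In CD11b+ DC *Cd2* was at 7.59 in Runx3Δ and 8.81 in WT, with Runx3Δ wholly below. *Cd4* was at 9.37 and 8.93 there, with overlap. The share of such cells in the levels of *Batf2*, *Irf1* and *Socs1* was not tested.

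Markers of other cells moved with the genotype too. Of 12 stromal markers 11 were below WT in each cell type, with medians of -0.28 in RM and -0.53 in CD11b+ DC. Their mean log2 level ran from 6.06 to 6.50 over Runx3Δ RM and from 6.41 to 6.94 over WT RM, and from 5.67 to 5.96 over Runx3Δ CD11b+ DC and from 6.03 to 6.66 over WT CD11b+ DC. One of them passed in RM, *Fap*, which encodes a protease of fibroblasts. Its levels were 4.73, 4.57, 4.67 and 4.90 in Runx3Δ RM, against 5.64, 5.76 and 5.85 in WT RM, a difference of -1.03 (limma, adjusted p = 0.00790). The call was lost without WT RM replicate 3 (limma, adjusted p = 0.0507), in unmoderated fits and in a fit of the RM samples alone.

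Of 12 epithelial markers 9 were above WT in RM and 10 in CD11b+ DC, with medians of 0.21 and 0.32, and none passed. Their mean level ran from 5.48 to 6.17 over Runx3Δ RM and from 5.52 to 5.93 over WT RM, and from 5.67 to 6.18 over Runx3Δ CD11b+ DC and from 5.48 to 5.78 over WT CD11b+ DC. *Car1*, a carbonic anhydrase of the colon epithelium, was brighter than most of them and differed by 1.69 in CD11b+ DC with no overlap (limma, adjusted p = 0.456). Of 12 mast cell and granulocyte markers 8 were above WT in each cell type, with medians of 0.20 in RM and 0.05 in CD11b+ DC. Runx3Δ was wholly above WT for 5 of them in RM and 4 in CD11b+ DC, against 4.12% and 13.1% of all rows. None passed, and 5 of the 12 stayed under a log2 level of 5 in every sample. Of 6 measured monocyte markers 4 were above WT in RM and 3 in CD11b+ DC, with medians of 0.39 and -0.04. *F10*, which encodes coagulation factor X, differed by 1.31 in RM with no overlap, and *Plac8* by 0.80 with overlap (limma, adjusted p = 0.283 and 0.506). Without WT RM replicate 1 *Plac8* differed by 1.19 and passed (limma, adjusted p = 0.0482). *Vcan*, another monocyte marker, went the other way. Its means were 5.37 in Runx3Δ RM and 5.96 in WT RM, with overlap. In CD11b+ DC they were 4.95 in Runx3Δ and 6.27 in WT, with Runx3Δ wholly below. The part of stromal, epithelial, mast cell, granulocyte or monocyte RNA in the levels of the 4 genes and of the interferon-γ targets was not tested. Of 8 measured B and plasma cell markers 5 were above WT in RM and 7 in CD11b+ DC, with medians of 0.06 and 0.14. Their mean level ran from 8.60 to 9.17 over Runx3Δ RM and from 8.27 to 9.68 over WT RM. Of 10 macrophage markers 9 were below WT in RM and 5 in CD11b+ DC, with medians of -0.11 and 0.01. *Mrc1* had means of 9.34 in Runx3Δ and 10.55 in WT CD11b+ DC, with no overlap. None of either list passed, and their part was not tested either.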

How the data were processed

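RNA of sorted cecal RM and CD11b+ DC was hybridized to 12 Affymetrix mouse arrays. The authors ran RMA with GC correction in Partek and deposited the result on a log2 scale, and the submitters' processing notes name mm9. The platform record lists a gene-level array and the study's methods an exon array, and genes were named here with the platform's annotation, so that 21789 of 35556 rows carry 1 symbol. Values were used as deposited and no column was left out.

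Groups came from the sample titles. A linear model with 4 group means was fitted (limma 3.58.1, R 4.3.3), and the fit was tested on simulated data. Plots used Python 3.11.15 with matplotlib 3.10.9. Motifs were searched on both strands of 32851 RefSeq promoter windows, and 3 of the 4 genes had a window. For the text, the brightest row stood for a gene, and the 5 genes most alike were named per gene. Up to 4 genes per list were named by their smallest p. Of the T and NK cell markers, *Cd3e*, *Cd3g*, *Ncr1* and *Gzmb* were named outside this rule. The 4 genes and the lists were chosen with earlier results of these data known.

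The labels number samples as litter mates without defining the numbers. They were read as shared litters, which is an assumption, and tried as a block. With group means removed, the median correlation was 0.0958 over 13 same-numbered pairs and -0.0347 over the 40 others. Other alternatives were a random block, fewer groups, the methods' ANOVA (unmoderated), a robust trend, array weights, a filter on dim rows, other scalings, 1 value per gene, removal of 6617 leading unnamed rows and each sample left out.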

Additional observations from a re-analysis of the deposited data

Results flagged for a closer look

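*Stat3* in Runx3Δ RM had levels of 10.84, 11.16, 11.20 and 11.14, so that replicate 1 lay far below the others: the gap to its neighbour was 0.834 of the whole range of the 4 samples. Such a gap is met by chance in about 1 in 20 groups. It was looked for in every gene followed with samples left out, so a gap of this kind can be expected by chance among them. Replicate 1 is also the RM array that correlated least with the rest. The RM difference of *Stat3* was -0.18, and -0.10 without it.

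*Batf3*, the relative of *Batf2* that CD103+CD11b- DC need, averaged 6.95 in Runx3Δ RM and 6.75 in WT RM, and 7.33 in Runx3Δ CD11b+ DC and 7.62 in WT CD11b+ DC. Every Runx3Δ sample of RM was above the WT mean and every Runx3Δ sample of CD11b+ DC below it. The RM difference was -0.0052 without WT RM replicate 1, and the DC difference, -0.30, was -0.15 without Runx3Δ CD11b+ DC replicate 1. The RM difference exceeded the DC difference by 0.50 on the log2 scale, and in the test of that contrast no row passed. *Batf3* is named here because of these values.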

How the results depend on the processing

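None of the 4 genes passed in RM, in CD11b+ DC or between the WT cell types in any of 25 alternatives, or in the interaction in any of 23. Fits on only the groups compared could not be made for the interaction and the mean of both cell types, which need all 4 groups. *Batf2* kept its direction in RM (0.55 to 0.86) and in CD11b+ DC (0.86 to 1.19), at an unadjusted p under 0.05 in all 25 alternatives of each. In the mean of both cell types the number of the 4 genes that passed was 0, and it was 1 (*Batf2*) with array weights, 1 with 1 row per gene, 1 with the mean of the rows of a gene and 1 without the leading unnamed rows. Of these, all but the array weights test fewer rows. Between RM and CD11b+ DC of Runx3Δ it was 0, and ranged from 0 to 1 when single samples were left out, the 1 being *Batf* without Runx3Δ RM replicate 1. With the litter as a replicate block *Batf2* differed by 0.67 in RM, 1.19 in CD11b+ DC and 0.93 on average (limma, adjusted p = 0.248, 0.509 and 0.134). The block changed no call of the 4 genes. Of the other genes followed through the alternatives it changed those of *Nlrc5* on average and of *Tnf* in RM.

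Values near 0 changed sign, and the cause was not tested. The RM difference of *Batf* was 0.00223 with array weights and 0.026 with quantile normalization, and -0.083 to 0.089 with single samples left out. Between the WT cell types *Irf1* was at 0.060 with the replicate block, 0.00047 with array weights and -0.26 to 0.16 with samples left out, and *Socs1* at -0.20 to 0.24. Between the Runx3Δ cell types *Batf2* was at 0.012 with array weights and -0.17 to 0.14 with samples left out. The interaction of *Irf1* was 0.022 with quantile normalization, 0.078 with the mean of rows and -0.25 to 0.16 with samples left out. That of *Socs1* was -0.087 with the replicate block, -0.0369 with array weights and -0.099 to 0.35 with samples left out. *Ccl5* was at 0.15 in CD11b+ DC with array weights and at -0.13 on average with the replicate block. With samples left out it ranged from -0.17 to 0.45 in RM, -0.33 to 0.21 in CD11b+ DC and -0.10 to 0.20 on average. In the same way *Batf3* ranged from -0.0052 to 0.33 in RM and -0.15 to 0.024 on average. *Ptpn11* in RM was at 0.046 with quantile normalization and *F10* in CD11b+ DC at 0.043 with array weights. In RM *Ptpn11* ranged from -0.055 to 0.049, *Jak1* from -0.100 to 0.0098 and *Car1* from -0.064 to 0.42. In CD11b+ DC *F10* ranged from -0.57 to 0.13, *Ifng* from -0.11 to 0.16, *Cish* from -0.14 to 0.011 and *Socs2* from -0.042 to 0.072.

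Over the whole table the number of rows that passed was 5 in RM (0 to 63 over the alternatives), 0 in CD11b+ DC (0 to 7), 4 on average (0 to 154), 2160 between the WT cell types (0 to 3014) and 2791 between the Runx3Δ cell types (1562 to 3964). The 2 WT arrays of CD11b+ DC limit every value there, and without either of them the remaining one is assumed to vary like the other groups.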
